A study of Mus musculus with 4 samples.

Results

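The muscarinic, cholecystokinin, secretin and vasoactive intestinal peptide receptors of pancreatic acinar cells, with the G proteins, calcium release channels and granule protein that act after them, were followed in pancreas of mouse embryos lacking Cyp11a1 and of wild-type embryos. The 10 genes were Chrm3, Chrm1, Cckar, Sctr, Vipr1, Gnaq, Gna11, Itpr2, Itpr3 and Rab3d, of 17305 genes that could be named on the array. All non-control probes whose RefSeq transcript belongs to 1 of these genes were taken, which gave 16 probes, with 1 probe for 6 genes and more than 1 for 4 genes. The knockout group held 4 extracts of total RNA from whole pancreas of C57BL/6JNarl knockout embryos at stage E18.5, and the wild-type group held 4 extracts from wild-type pancreas of the same strain and stage. Each of 4 two-colour Agilent arrays compared a knockout extract, labelled with a red dye, with a wild-type extract, labelled with a green dye. The labels call the arrays biological replicates. The deleted part of Cyp11a1, the sex of the embryos, and whether an extract pooled embryos are not given in the sources used here. The dyes were never swapped, so for every gene below a dye effect and the genotype cannot be told apart.

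Acinar cells store digestive enzymes in zymogen granules and release them when acetylcholine or cholecystokinin binds its receptor. The muscarinic receptor M3 (Chrm3) and the cholecystokinin A receptor (Cckar) couple to the Gq class of G proteins, which activates phospholipase C. The inositol trisphosphate made by that enzyme opens calcium channels of the endoplasmic reticulum (Itpr2 and Itpr3), and the calcium rise drives granules to fuse with the apical membrane. The receptors for secretin (Sctr) and vasoactive intestinal peptide (Vipr1) signal mainly through cyclic AMP, and Rab3d is a small GTPase on the granule membrane. Cyp11a1 encodes the mitochondrial enzyme that makes pregnenolone from cholesterol, with which all steroid hormone synthesis begins.

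The promoter of Chrm3, the member whose level differed most, and that of Itpr2, the gene of the other probe past the test, are shown as the 250 bases before the annotated start of each gene. Both come from RefSeq on build GRCm38.p6 and read 5′ to 3′ on the gene's strand, the minus strand for both. They lie at chr13:10360804-10361053 for Chrm3 and at chr6:146502224-146502473 for Itpr2. Capitals mark any match to 4 motifs searched on both strands: TGTTCT of the glucocorticoid receptor site, the E-box CANNTG, the TATA box TATAAA and the GC box GGGCGG, of which no match overlapped another in these windows.
Chrm3: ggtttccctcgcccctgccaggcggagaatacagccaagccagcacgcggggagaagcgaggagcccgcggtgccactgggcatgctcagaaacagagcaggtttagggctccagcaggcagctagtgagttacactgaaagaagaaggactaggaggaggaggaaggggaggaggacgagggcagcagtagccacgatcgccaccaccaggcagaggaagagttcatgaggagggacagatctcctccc
Itpr2: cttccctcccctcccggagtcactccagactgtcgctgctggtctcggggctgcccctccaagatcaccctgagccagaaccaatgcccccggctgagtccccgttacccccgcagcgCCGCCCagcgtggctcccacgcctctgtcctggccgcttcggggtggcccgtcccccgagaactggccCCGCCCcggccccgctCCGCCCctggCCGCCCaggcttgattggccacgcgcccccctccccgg
The Chrm3 window held 0 matches to the 4 motifs. The Itpr2 window held 4 GC boxes, each on the opposite strand to the gene. Its GC content was 74.4%, and that of the Chrm3 window 61.2%, against a median of 52.4% over 32851 windows of the same length. A window was found for 7 of the 10 genes. Of these 7, 6 held a GC box (32.7% of all windows), 1, Itpr3, held an E-box (66.2% of all windows), and 0 held TGTTCT (16.1%) or TATAAA (12.4%). These matches describe letters in a short window.

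On the arrays, the median spot read 304 to 467 for knockout and 163 to 224 for wild type, and the share of spots well above background was 78.2% to 85.1%. Signals were background-corrected and normalised within each array by loess, and each gene's log2 ratio, knockout over wild type, was tested against 0 with limma, with Benjamini-Hochberg adjustment over all tested genes and a threshold of 0.05. Log2 ratios of different arrays correlated across genes at Pearson r = 0.31 to 0.60, a description over genes, which are not independent. Cyp11a1 itself had log2 ratios of -0.19, -0.40, 0.013 and -0.072 on arrays 1 to 4 by the probe A_51_P309727 (limma adjusted p = 0.18 over all probes), so no loss of this transcript passed the test in the extracts labelled knockout. Where that probe lies relative to the deletion is not known. Its other probe rose above background on 0 knockout and 1 wild-type arrays.

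Chrm3 was lower in knockout pancreas, and it was the member with the largest difference. Its single probe (A_51_P247853) had normalised log2 signals of 8.35, 8.41, 8.73 and 9.30 in knockout extracts on arrays 1 to 4, against 9.22, 9.81, 9.17 and 10.15 in wild-type extracts. Knockout was below wild type on every array, while array 4 was the brightest in both groups, so its knockout signal lay above the wild-type signals of arrays 1 and 3 and the groups overlapped. The log2 ratios were -0.86, -1.39, -0.44 and -0.85, and their mean was -0.89 ± 0.13 (SE, n = 4, 95% interval -1.19 to -0.58, limma adjusted p = 0.0064). Chrm3 was thus 1.85-fold lower in knockout and stood 18th from the lowest log2 ratio among 15524 tested genes. The difference was as large or larger in either direction in 33 genes, Chrm3 included.

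The raw spot signals of Chrm3, before normalisation, were 462.5, 452, 684 and 703 in knockout and 401.5, 643, 347 and 862.5 in wild type. On arrays 1 and 3 the raw knockout signal was above the wild-type one. The knockout channel was brighter on all 4 arrays. Median spot signals on arrays 1 to 4 were 312, 304, 467 and 320 for knockout against 163, 183.5, 196 and 224 for wild type. The result kept its side of the threshold without each array in turn, with log2 ratios of -1.04 to -0.72 and limma adjusted p-values of 0.0056 to 0.031. When the channels were treated as unpaired samples, so that the pairing on an array was ignored, the limma adjusted p was 0.14. In extracts of whole pancreas, fewer cells of a type and less RNA per cell cannot be told apart.

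**Figure D1:**
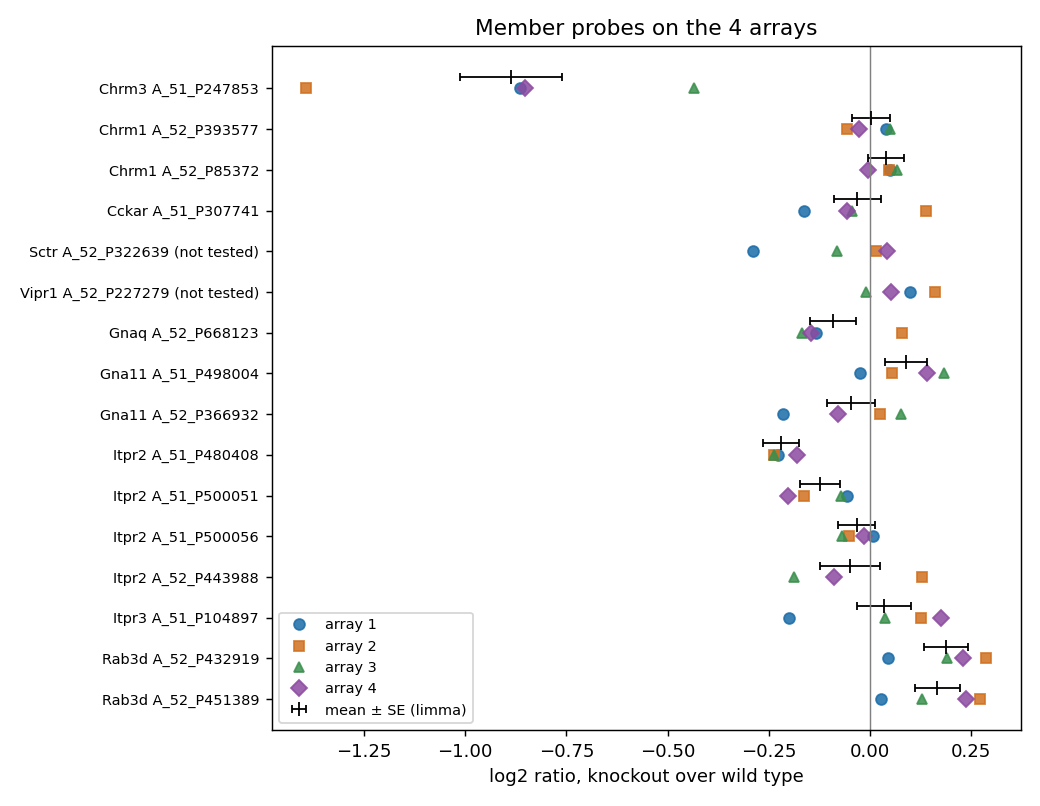
Log2 ratio of knockout over wild type (x axis) for each of the 16 member probes (y axis). Coloured symbols are arrays 1 to 4 and the black bar is the limma mean ± SE for the 14 tested probes. The 4 Chrm3 values lie at -1.39 to -0.44, and those of the other probes lie within 0.3 of 0.

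Chrm3 is also made by smooth muscle and by some nerve cells, so their markers are given beside it. Markers of islet and other cell types are given further below. Of 11 smooth muscle and stellate markers, all tested, 1 was higher and 1 lower in knockout (18.2% called, against 14.6% of all tested genes). Pdgfrb was higher (0.33 ± 0.069, limma adjusted p = 0.021) and the muscle gene Cnn1 lower (-0.33 ± 0.048, limma adjusted p = 0.0063). The other muscle genes of this list did not pass: Myh11 (-0.16), Des (-0.12), Actg2 (-0.078), Acta2 (-0.0070) and Tagln (0.0042). Over all 11 markers the median log2 ratio was -0.11, -0.14, 0.020 and -0.0045 on arrays 1 to 4. Their summed normalised signal ranged over arrays from 148897 to 200340 in knockout and from 143536 to 190667 in wild type. Of 12 nerve and glia markers tested out of 13, 0 passed in either direction, and their summed signal was 81354 to 97668 in knockout and 81647 to 100909 in wild type. Of 18 acinar markers tested out of 19, 5 were higher and 5 lower (55.6% called, against 14.6% of all tested genes). Their log2 ratios ran from -1.52 to 0.72. The summed acinar signal was 942179 to 1369253 in knockout and 973877 to 1020118 in wild type. The sums leave out a marker on an array where it had no value (Tagln and Prph on array 4, Elavl3 on array 1, Foxd3 on array 3). Their ranges do not pair the extracts of an array. The part of these cell types in the Chrm3 result was not tested.

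The other muscarinic receptor, Chrm1 (M1), did not pass. Its brighter probe (A_52_P85372) had log2 ratios of 0.048, 0.048, 0.065 and -0.0042, with mean signals of 15.01 ± 0.29 in knockout and 14.97 ± 0.27 in wild type (SD, n = 4). The mean log2 ratio was 0.039 ± 0.043 (SE, n = 4, 95% interval -0.060 to 0.14, limma adjusted p = 0.58). The second probe (A_52_P393577), designed to another RefSeq transcript of the gene, averaged 8.36 ± 0.16 in knockout and 8.36 ± 0.16 in wild type (SD, n = 4). The genotypes overlapped on both probes, and the 4 ratios of the second lay between -0.057 and 0.048.

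Cckar, the receptor for cholecystokinin, had log2 signals of 11.73, 12.01, 12.19 and 12.42 in knockout extracts, against 11.89, 11.87, 12.23 and 12.47 in wild-type extracts. Knockout was below wild type on 3 arrays and above it on array 2, and the groups overlapped throughout. The mean log2 ratio was -0.032 ± 0.057 (SE, n = 4, 95% interval -0.16 to 0.10, limma adjusted p = 0.75), and its sign changed when array 1 was left out (0.011). The interval of Cckar does not reach the size of the Chrm3 difference.

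The cyclic AMP-linked receptors were near or below the detection limit. The Sctr probe was not well above background on any of the 4 arrays in either genotype, with raw signals of 48, 57, 60 and 57 in knockout (local background 48, 42, 55 and 46) and of 50.5, 53, 58 and 49 in wild type (local background 28.5, 28, 35 and 26). The Vipr1 probe was well above background on arrays 3 and 4 in both genotypes, 2 of 4 arrays each, with raw signals of 79, 65, 95 and 76 in knockout and of 54, 56, 74 and 68 in wild type. Neither gene was tested, and no fold is given for them.

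**Figure D2:**
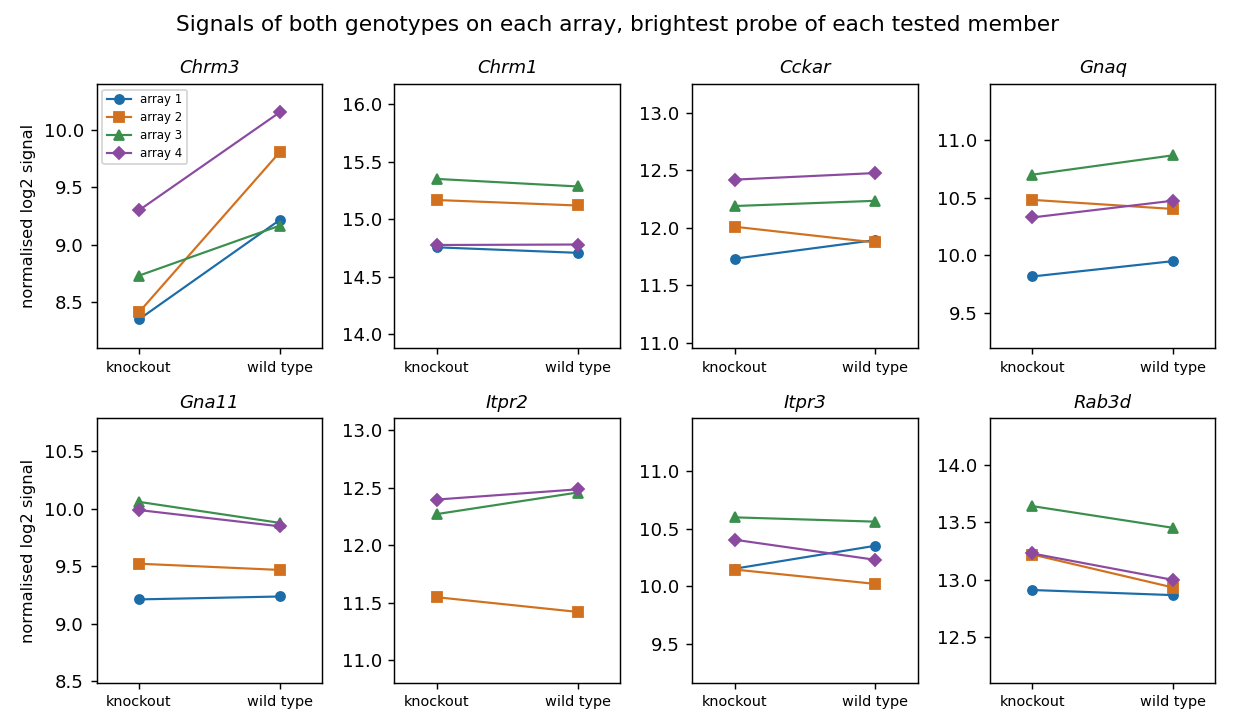
Normalised log2 signal (y axis) of the knockout extract (left) and the wild-type extract (right) on each array, for the brightest probe of the 8 tested members, with a line joining the extracts of 1 array. Every panel spans the same height; all 4 Chrm3 lines run upward to wild type, while the lines of the other genes are close to level.

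The alpha subunits that link these receptors to phospholipase C did not pass the test. Gnaq had log2 signals of 9.81, 10.48, 10.70 and 10.33 in knockout, against 9.95, 10.40, 10.87 and 10.47 in wild type. Its log2 ratios were -0.13, 0.079, -0.17 and -0.15, so that array 2 alone was above 0. The mean was -0.092 ± 0.055 (SE, n = 4, 95% interval -0.22 to 0.036, limma adjusted p = 0.30).

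Gna11, the closest relative of Gnaq, had 2 probes that differed in sign. The brighter (A_51_P498004) had log2 signals of 9.21, 9.52, 10.06 and 9.99 in knockout and of 9.24, 9.47, 9.88 and 9.85 in wild type. Its mean log2 ratio was 0.088 ± 0.051 (SE, n = 4, 95% interval -0.030 to 0.21, limma adjusted p = 0.28). The other (A_52_P366932) had ratios of -0.21, 0.024, 0.077 and -0.078, with a mean of -0.048 (limma adjusted p over all probes 0.64). On both probes array 1 gave the lowest and array 3 the highest ratio.

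Itpr2, an inositol trisphosphate receptor of the acinar apical pole, had 4 probes, and their results differed. The brightest (A_52_P443988) had values on 3 arrays, because its spot on array 1 was marked as non-uniform, with log2 signals of 11.55, 12.27 and 12.40 in knockout on arrays 2 to 4 and of 11.42, 12.46 and 12.49 in wild type. Its mean log2 ratio was -0.050 ± 0.073 (SE, n = 3, 95% interval -0.22 to 0.12, limma adjusted p = 0.69), which stands for the gene in the gene-level test.

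The Itpr2 probe A_51_P480408 had log2 signals of 8.86, 9.01, 9.24 and 9.40 in knockout, against 9.08, 9.25, 9.48 and 9.58 in wild type. Its ratios of -0.23, -0.24, -0.24 and -0.18 were nearly equal on the 4 arrays, with a mean of -0.22 ± 0.045 (SE, n = 4, limma adjusted p = 0.021 over all 32596 tested probes), while the signals of the genotypes overlapped. The call was lost without array 1, 3 or 4 (limma adjusted p = 0.070, 0.085 and 0.069), and under median centring in place of loess the ratio turned to 0.045. The remaining probes had mean ratios of -0.12 (A_51_P500051, limma adjusted p = 0.15) and -0.033 (A_51_P500056, limma adjusted p = 0.68). All 4 means were below 0, with 1 probe past the threshold.

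Itpr3, the second apical calcium release channel, had log2 signals of 10.15, 10.14, 10.60 and 10.40 in knockout, against 10.35, 10.02, 10.56 and 10.23 in wild type. Array 1 gave a ratio of -0.20 and the others gave 0.125, 0.038 and 0.17, so the arrays disagreed in sign. The mean was 0.034 ± 0.067 (SE, n = 4, 95% interval -0.12 to 0.19, limma adjusted p = 0.77).

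Rab3d, the granule GTPase, was above wild type on every array but missed the threshold. Its brighter probe (A_52_P432919) had log2 signals of 12.91, 13.22, 13.64 and 13.23 in knockout, against 12.87, 12.93, 13.45 and 13.00 in wild type, and the groups overlapped. The log2 ratios were 0.044, 0.29, 0.19 and 0.23, with a mean of 0.19 ± 0.053 (SE, n = 4, 95% interval 0.065 to 0.31, limma adjusted p = 0.054). The second probe (A_52_P451389) gave 0.028, 0.27, 0.13 and 0.24, with a mean of 0.17 and a limma adjusted p of 0.097 over all probes.

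Both Rab3d probes put the arrays in the same order, with array 1 lowest, then 3, 4 and 2. The acinar markers had median log2 ratios of -0.11, 0.26, 0.14 and 0.24 on arrays 1 to 4, in that same order. Single acinar markers did not all keep that order, and Gp2 was lowest on array 4. The part of the acinar markers in the Rab3d ratio was not tested. The limma adjusted p of Rab3d fell under the threshold with the strict filter on dim probes (0.0499), with a trended, robust variance (0.031) and with array weights (0.040). Those settings also called more of all tested genes, 15.6%, 16.1% and 15.9% against 14.6%.

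Taken as a group, 8 of the 10 members and 14 of their 16 probes were bright enough to test. At the gene level, 1 of 8 members (12.5%) passed, Chrm3, against 2260 of 15524 tested genes (14.6%). In knockout, 1 member was lower, where 5.11% of all tested genes were, and 0 were higher, where 9.45% were. At an unadjusted p under 0.05, 2 of 8 members were counted, Chrm3 and Rab3d, against 4777 of the 15524 tested genes, a share no smaller than that of the members. The median log2 ratio was 0.0012 over the members and 0.013 over all tested genes, and the median size without sign was 0.069 and 0.083. The share of members called was near that of all tested genes.

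Counted by probe, 2 of 14 member probes passed, both lower in knockout, where 10.7% of all tested probes passed in either direction and 4.11% passed as lower. Of the 7 members with values on 4 arrays, 2 (Chrm3 and Rab3d) had 1 sign on all 4, against 39.1% of all such genes. In 0 of these 7 did the knockout and wild-type signals not overlap, against 1.29% of all such genes.

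**Figure D3:**
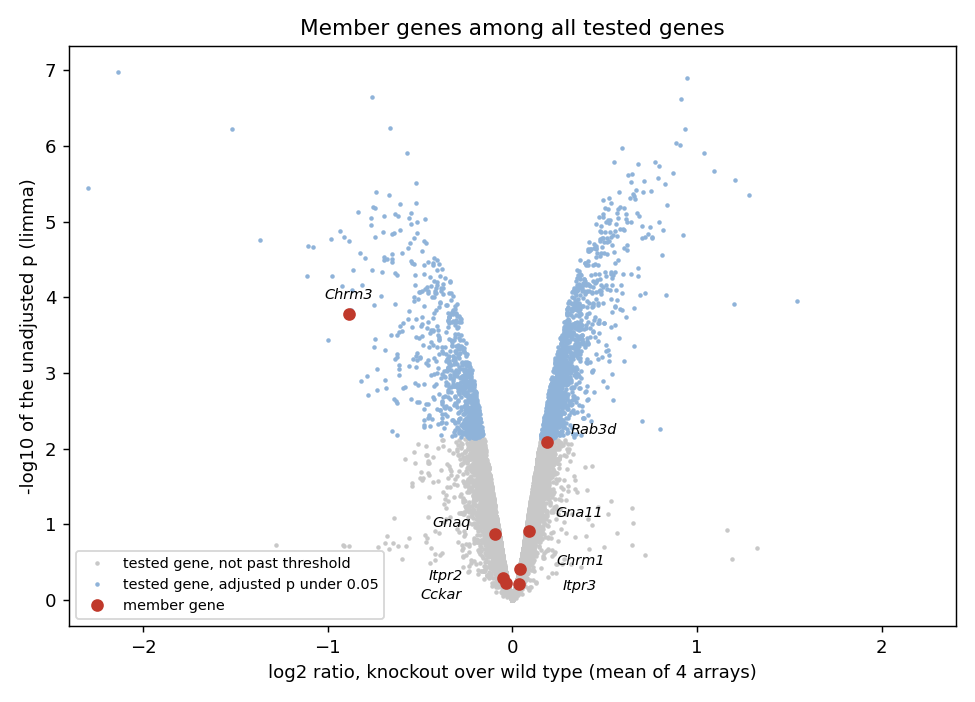
Log2 ratio of knockout over wild type (x axis) against -log10 of the unadjusted limma p (y axis, a log scale) for the 15524 tested genes, with genes past an adjusted p of 0.05 in blue and the 8 tested members in red. Chrm3 lies at -0.89 on the left arm, Rab3d at 0.19 lies just under the blue genes, and the other 6 members lie near the base.

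The remaining genes of stimulus-secretion coupling were read from 10 lists of 171 genes, 159 of which were tested. In knockout 9 were higher and 11 lower (12.6% called, against 14.6% of all tested genes), with a median log2 ratio of -0.010, and 0 of the 159 differed by as much as Chrm3. Among 16 other receptors, 0 were higher and 1, the nucleotide receptor P2ry2, was lower (-0.22 ± 0.053, limma adjusted p = 0.034). Among 9 ligands and cholinergic enzymes 0 passed, and the smallest p belonged to the vesicular acetylcholine transporter Slc18a3 (0.18 ± 0.052, limma adjusted p = 0.054).

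Of 18 other G proteins and their regulators, 2 were higher and 3 lower. The Gq-class subunit Gna14 (0.20 ± 0.056, limma adjusted p = 0.049) and the gamma subunit Gng5 (0.30 ± 0.062, n = 3, limma adjusted p = 0.025) rose. The beta subunit Gnb1 (-0.33 ± 0.048, limma adjusted p = 0.0065) and the receptor kinases Grk5 (-0.20 ± 0.056) and Grk6 (-0.30 ± 0.059) fell on their brightest probes. The other Gnb1 probes gave 0.16, -0.056 and 0.15 and the other Grk6 probes 0.092 and 0.083, so for both genes the probes disagreed in sign. The other Grk5 probe gave -0.11 and did not pass (limma adjusted p = 0.43 over all probes). The other Gng5 probe gave 0.20 and passed (limma adjusted p = 0.040 over all probes). Of 9 phospholipase C genes, 1 passed, the beta isoform Plcb4 (-0.38 ± 0.086, limma adjusted p = 0.027).

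Among 12 other calcium release channels and their modulators, 2 were higher and 0 lower. Itpka, which phosphorylates inositol trisphosphate, had ratios of 0.22, 0.43, 0.50 and 0.35 and averaged 0.37 ± 0.056 (limma adjusted p = 0.0073). Itpka was dim, with a mean log2 signal of 7.39. The endolysosomal channel Tpcn1 rose as well (0.32 ± 0.073, limma adjusted p = 0.028). Its other probe gave 0.13 and did not pass (limma adjusted p = 0.11 over all probes). Of 11 calcium entry genes 0 passed, and the smallest p was that of the store-operated channel Orai2 (0.15 ± 0.044, limma adjusted p = 0.062). Of 12 pumps and exchangers, 1 passed, the plasma membrane calcium pump Atp2b1 (-0.29 ± 0.053, limma adjusted p = 0.013), whose other probe gave -0.36.

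Of 20 calcium sensors and effectors, 2 were higher and 2 lower. The calcineurin-responsive transcription factor Nfatc1 had nearly equal ratios of 0.27, 0.29, 0.25 and 0.30 (0.28 ± 0.042, limma adjusted p = 0.0075), and the calcineurin regulator Rcan2 rose (0.21 ± 0.053, limma adjusted p = 0.041). The other probes of Nfatc1 (0.23) and Rcan2 (0.31) passed as higher. The calcineurin subunit Ppp3r1 (-0.25 ± 0.052) and the protein kinase C isoform Prkce (-0.19 ± 0.044) fell. Their other probes were below 0 as well but did not pass. Of 18 genes of the cyclic AMP arm, the phosphodiesterase Pde4d (0.27 ± 0.068) and the kinase subunit Prkaca (0.20 ± 0.050) rose and the phosphodiesterase Pde3a (-0.19 ± 0.048) fell. Pde3a was dim, with a mean log2 signal of 7.09. The other Pde4d probe gave 0.071 and did not pass (limma adjusted p = 0.34 over all probes). Of 34 exocytosis genes, Sytl1 (0.26 ± 0.053) rose, and the fusion proteins Snap29 (-0.26 ± 0.049) and Stx7 (-0.22 ± 0.045) fell. The other Snap29 probes gave -0.076 and -0.12 and did not pass.

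The number of pathway genes past the threshold was 11, 19, 6 and 5 without arrays 1, 2, 3 and 4. Only Atp2b1, Gnb1, Itpka and Nfatc1 passed without each array in turn, and Grk5, Pde3a, Prkaca and Rcan2 passed in 0 of these fits. Under median centring in place of loess the median of all genes moved to 0.26, and 9 of the 11 genes called lower, all but P2ry2 and Pde3a, had a ratio above 0. Relative to that median, 19 of the 20 called genes kept their sign and Itpka did not (-0.069).

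**Figure D4:**
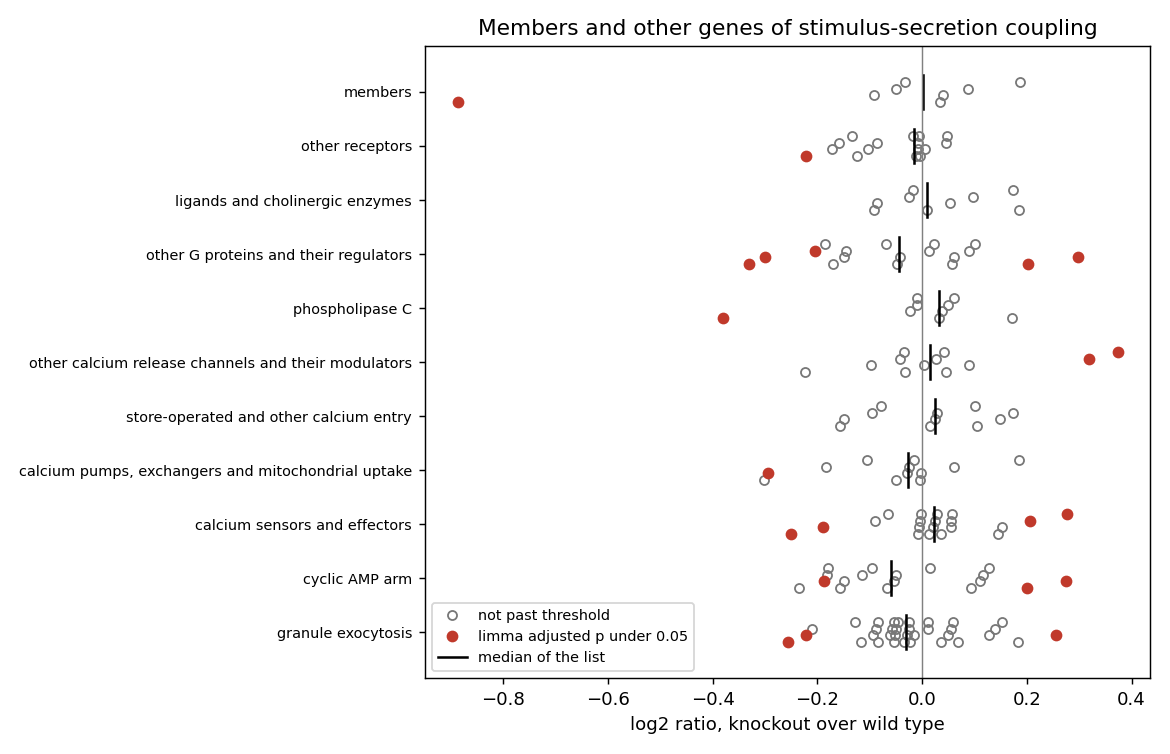
Log2 ratio of knockout over wild type (x axis) of each tested gene in the members and the 10 pathway lists (rows), with genes past a limma adjusted p of 0.05 filled red, the others open, and a black bar at each list's median. Chrm3 at -0.89 stands apart from the 159 pathway genes, which lie between -0.38 and 0.37.

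Blood and liver transcripts differed between arrays more than the members did. Hepatocyte markers had medians of 1.23, 0.59, -0.61 and 0.37 on arrays 1 to 4, and erythroid markers 0.47, 0.17, -0.56 and 1.13, and 0 of either list passed. The 7 endothelial markers had a median of -0.13 with 1 lower (14.3%). Of 10 islet markers tested 0 were higher and 2 lower (20%). The 2 were Chga (-0.24, limma adjusted p = 0.036) and Chgb (-0.31, limma adjusted p = 0.043). The other 8 did not pass, with Ins1 at 0.013 and Ins2 at -0.025 among them. Of 9 duct markers 1 was higher (11.1%), and of 8 leukocyte markers 0 passed. Of all tested genes 14.6% passed. The part of these cells in the member ratios was not tested.

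Among the settings tried, median centring in place of loess moved each of the 8 tested members most. There all 8 passed, 7 higher and 1 lower, in a fit where 11922 of 15524 genes passed. Relative to the median of all genes in that fit, Chrm3 was at -0.89, Rab3d at 0.44, Chrm1 at 0.36, and Gna11 and Itpr3 at 0.15 and 0.14. Cckar, Itpr2 and Gnaq changed sign, at 0.17, 0.15 and 0.023. With loess Chrm3 was also at -0.89, and before that median was subtracted it was at -0.64. The move from loess was smallest for Chrm3, the dimmest of the 8 (mean log2 signal 9.14). It was largest for Chrm1, the brightest (14.99). The like values of Chrm3 under loess and median centring are not separate support for its difference, and why they are alike was not tested.

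**Figure D5:**
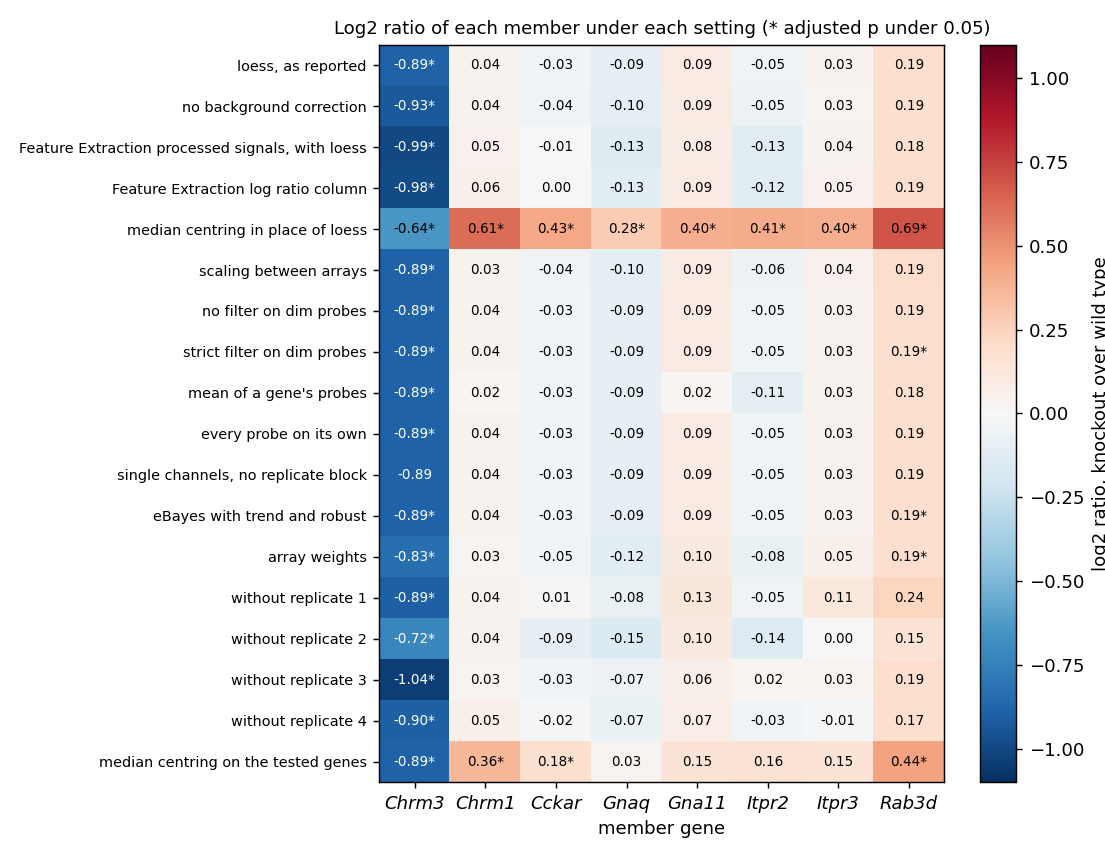
Log2 ratio of knockout over wild type of the 8 tested members (columns) under each setting (rows), coloured from blue (lower in knockout) to red (higher), with an asterisk for an adjusted p under 0.05. Chrm3 is below 0 in every row, from -1.04 to -0.64, while most other members are near 0 except in the rows of median centring.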

How the data were processed

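The submitters' processing notes name Agilent Feature Extraction 10.5.1.1. Per the file headers, the authors deposited for each spot its median signal, background and processed signal in both colours as intensity on a linear scale, and a log10 ratio (red over green). The labels give 20 µg of total RNA as input to oligo(dT)-primed, indirectly labelled cDNA.

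Median signals, used because the files list no mean signals, were corrected with normexp (offset 50) and loess-normalised within arrays in limma 3.58.1 under R 4.3.3, with control and non-uniform spots at weight 0. Non-uniform spots (597 to 979 per array) were then left out. No spot was saturated. Of 41174 probes, 25097 (61.0%) were named by matching accessions to a RefSeq gene table of GRCm38.p6. Coordinates are given for promoter windows alone, since the array names an older build. A probe was tested if well above background in red on at least 3 arrays, or in green on at least 3, with at least 3 values. A gene was represented by its brightest tested probe (15524 genes, 601 on 3 arrays).

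Each ratio holds its array's pairing. The extract codes in the labels share prefixes between arrays (BB for knockout on arrays 1 and 2, BF for both extracts of array 3 and wild type on array 1). Their meaning is not stated. The arrays were treated as independent, and a shared origin, which could make the errors and p-values too small, was not tested. P-values are two-sided. The SEs, intervals and p-values are limma's moderated ones, in which each gene's variance between arrays is drawn toward that of all tested genes. They therefore do not measure the spread of a gene's own ratios alone. The 4 ratios of Chrm3 had an SD of 0.39, and its SE of 0.13 is smaller than they alone would give. Those of Nfatc1 had an SD of 0.021, and its SE of 0.042 is larger. The number of arrays limits the precision. All arrays were on 1 slide by its barcode. The fit was tested on simulated data. The members, lists and tests were chosen with earlier results of these data known. Named were all members and, of each pathway list, every gene past the threshold or otherwise the gene with the smallest p. Alternatives were no background correction, processed signals with loess, the log ratio column, median centring, scaling between arrays, other probe filters and summaries, single channels, a trended robust variance, array weights and leaving out each array. Median centring on the tested genes was added after seeing the data.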

Additional observations from a re-analysis of the deposited data

Results flagged for a closer look

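Gnaq was marked for 1 array far from the others. The log2 ratio of its probe A_52_P668123 was 0.079 on array 2, while the other arrays gave -0.17 to -0.13, and the gap of array 2 to its nearest neighbour took 0.858 of the whole range, above Dixon's critical value for 4 values. Of 36 probes examined in this way 1 was marked, and chance marks about 1 in 20 groups. Without array 2 the ratio of Gnaq was -0.15, still short of the threshold (limma adjusted p = 0.093).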

How the results depend on the processing

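Chrm3 was lower in knockout under all 17 alternatives (-1.04 to -0.64) and past the threshold in 16. The exception ignored which extracts shared an array (no replicate block, so no pairing): Chrm3 then had a limma adjusted p of 0.14, and 107 genes, 0 members, 0 member probes and 0 pathway genes were called. Some alternatives could not change the Chrm3 ratio of -0.89, and so bear on its p-value alone. They were the probe filters and summaries (Chrm3 has 1 probe), single channels and the trended robust variance. With each array left out, 967 to 1634 genes, 1 member in each case, 1 to 2 member probes and 5 to 19 pathway genes were called. Counted by probe, 3501 were called. The log ratio column left 1 member probe. The strict filter, the trended robust variance and array weights each called 2 members, Rab3d being the added one. Of all tested genes these settings called 15.6%, 16.1% and 15.9%, against 14.6% in the fit reported above. Median centring called 11922 genes (79.4% of them higher, against 64.9% with loess), 8 members, 12 member probes and 127 pathway genes, and moved the median of all genes from 0.013 to 0.26. Median centring on the tested genes called 9065 genes (46.9% higher), 4 members, 7 member probes and 84 pathway genes.

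Under median centring in place of loess the sign changed for several genes. There Cckar was at 0.43, Gnaq 0.28, Itpr2 0.41, its other probes 0.045, 0.28 and 0.23, the second Gna11 probe 0.25, Atp2b1 0.066, Gnb1 0.23, Grk5 0.12, Grk6 0.18, Plcb4 0.023, Ppp3r1 0.15, Prkce 0.21, Snap29 0.077, Stx7 0.15 and Slc18a3 -0.25. Centred on the tested genes, Cckar was at 0.18, Gnaq 0.029, Itpr2 0.16, its probe A_51_P500051 0.034, the second Gna11 probe 0.0021, the second Chrm1 probe -0.15, Itpka -0.063, Orai2 -0.24 and Slc18a3 -0.50. The second Chrm1 probe, at 0.0011 with loess, was at -0.016 without background correction, -0.052 with processed signals, -0.041 in the log ratio column and -0.00035 with scaling between arrays. Cckar was at 0.00026 in the log ratio column. With each array left out, ranges that crossed 0 were -0.088 to 0.011 for Cckar, -0.14 to 0.020 for Itpr2, -0.012 to 0.11 for Itpr3, -0.089 to 0.0077 for the second Gna11 probe and -0.015 to 0.021 for the second Chrm1 probe. Under median centring in place of loess, the move of these genes followed their brightness. Slc18a3 (mean log2 signal 6.84) went from 0.18 to -0.25. Gnb1 (14.70) went from -0.33 to 0.23, and Chrm1 (14.99) from 0.039 to 0.61. The cause of the changes under this and the other settings was not tested. Dim signals limit Sctr and Vipr1, which could not be tested.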
